A study of Mus musculus with 8 samples.

Results

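The genes described here are 9 that write, maintain, read or remove DNA methylation: the DNA methyltransferase genes Dnmt1, Dnmt3a and Dnmt3b, the maintenance factor gene Uhrf1 and its paralogue Uhrf2, the dioxygenase genes Tet1, Tet2 and Tet3, and the methyl-CpG binding gene Mbd2. They were chosen by symbol, with earlier results of these data known. All 9 were found among the 24155 genes of the deposited table and passed the filter on low counts that left 18102 genes. Transcripts were measured in cultured oligodendrocyte progenitors of the mouse, which divide and give rise to myelinating cells, immunopanned from male and female pups at postnatal day 7. All cultures carried Ehmt1fl/fl;Ehmt2fl/fl alleles and were kept in SATO medium to which 2 mitogens were added, bFGF at 20 ng/mL and PDGF-AA at 10 ng/mL. The control group (4 libraries) received Ad-RFP, an adenovirus with red fluorescent protein alone, and the cKO group (4 libraries) received Ad-RFP-iCre, which adds Cre recombinase, so the floxed alleles were present in both groups and the virus backbone was shared. Infection lasted 6 hours at an MOI (infectious virus per cell) of 10, and RNA was taken at 72 hours. Replicate numbers 1, 3, 4 and 6 name batches that each hold 1 control and 1 cKO library. Whether the batches are separate litters or animals is not stated, so p-values measure only the spread between these pairs, which may be technical.

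DNA methylation in mammals sits mainly on the cytosine of CpG dinucleotides. Dnmt3a and Dnmt3b encode enzymes that set it de novo, and Dnmt1 encodes the enzyme that copies it to the new strand after replication. Uhrf1 recognises hemimethylated DNA and methylated histone H3 lysine 9 and recruits Dnmt1 to replicated DNA. TET proteins oxidise 5-methylcytosine, which leads to its removal, and Mbd2 binds methylated CpGs as part of the NuRD corepressor. Ehmt1 and Ehmt2, the genes targeted in this study, encode the H3 lysine 9 methyltransferases GLP and G9a, which are known to interact with the DNA methylation machinery. The comparison asked whether transcripts of that machinery differed between cKO and control progenitors.

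Promoter windows from RefSeq (GRCm38.p6, 250 bases before to 50 bases after an annotated start) were found for 8 of the 9 genes, 13 windows in all. Sequences are shown for 2 properties: the CpG content that these proteins act on, and an E2F-type motif of genes expressed in dividing cells, because Dnmt1 and Uhrf1 were the members whose levels differed most between batches. CpG number per 300 bases ran from 2 in the most upstream Dnmt1 window to 57 at Tet2, against a median of 7 over all 32851 windows, and 12 of the 13 member windows were at or above that median. The 250 bases before the start in these 2 extreme windows are printed with CpGs in capitals, the Tet2 stretch at chr3:133544391-133544640 and the Dnmt1 stretch at chr9:20959889-20960138, both on the minus strand and outside annotated UTRs of their gene.
Tet2: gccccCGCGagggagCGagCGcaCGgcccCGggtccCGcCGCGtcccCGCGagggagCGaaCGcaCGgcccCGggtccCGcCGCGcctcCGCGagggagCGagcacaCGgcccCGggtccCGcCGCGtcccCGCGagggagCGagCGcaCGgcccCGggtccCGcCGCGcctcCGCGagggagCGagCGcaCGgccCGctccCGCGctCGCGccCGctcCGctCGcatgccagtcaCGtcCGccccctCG
Dnmt1 upstream window: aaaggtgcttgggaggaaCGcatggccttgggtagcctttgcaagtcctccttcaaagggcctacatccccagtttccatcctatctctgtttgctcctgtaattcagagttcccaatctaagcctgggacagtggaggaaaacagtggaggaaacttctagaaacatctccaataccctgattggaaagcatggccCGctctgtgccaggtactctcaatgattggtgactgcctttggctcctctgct
The Tet2 stretch is made of near-repeats dense in CpG and holds 51 of them, whereas the Dnmt1 stretch holds 2.

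The motif was searched as TTTCCCGC, TTTCGCGC, TTTGCCGC and TTTGGCGC on both strands. It occurred in 2.26% of all windows (744 of 32851), and 2.6% of genes held it in at least 1 window. Among the members it was found in Dnmt1 and Uhrf1, in 1 window each (2 of the 13 windows), and not in the windows of Dnmt3a, Dnmt3b, Uhrf2 or the TET genes. Each form searched contains a CpG, and the 2 windows with a match held 33 CpGs each, against a median of 7 over all windows. The shares over all windows and genes were not matched for CpG content, so the member windows cannot be weighed against them. The 3 matches are printed below on the strand of the gene, with 30 bases each and the match in capitals (GCGCGAAA is TTTCGCGC read on the opposite strand). Those of Dnmt1, at chr9:20952824-20952853 and chr9:20952574-20952603 (minus strand), lie in annotated UTR exons, and that of Uhrf1, at chr17:56304117-56304146 (plus strand), lies upstream of a start.
Dnmt1 first match: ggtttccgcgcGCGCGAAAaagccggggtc
Dnmt1 second match: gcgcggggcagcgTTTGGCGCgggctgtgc
Uhrf1 match: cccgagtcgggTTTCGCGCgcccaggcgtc
The 250 bases before that start of Uhrf1 (chr17:56304063-56304312, plus strand) show the match in its surroundings, again in capitals.
Uhrf1: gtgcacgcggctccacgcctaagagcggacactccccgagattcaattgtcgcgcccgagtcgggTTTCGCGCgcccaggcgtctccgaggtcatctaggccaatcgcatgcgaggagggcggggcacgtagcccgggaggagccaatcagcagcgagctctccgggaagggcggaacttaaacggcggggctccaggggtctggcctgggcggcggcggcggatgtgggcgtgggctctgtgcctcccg
A match is a description of these letters only, and binding was not measured.

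The libraries held 43542742 to 65374488 estimated counts, and levels are given as CPM, counts scaled to a common library size. The targeted genes checked the labels: Ehmt1 stood at 88.8 to 100 CPM in control and 36.1 to 45.7 CPM in cKO libraries, and Ehmt2 at 154 to 196 and 51.7 to 64.5 CPM. They remained at 43.4% and 32.9% of control in the fit. The 13 progenitor markers averaged above 1 CPM in control, as did 10 of 10 astrocyte and 9 of 14 mature oligodendrocyte markers. They summed to 9363 to 14483 CPM in control and 8644 to 13112 CPM in cKO, lower in cKO in 4 of 4 pairs, with 2 called higher and 2 lower. One of those lower was the growth factor receptor gene Pdgfra (-0.31 ± 0.03; edgeR adjusted p = 0.000227). Those higher were Matn4 (1.21 ± 0.14; edgeR adjusted p = 0.00046) and Lhfpl3 (0.13 ± 0.03; edgeR adjusted p = 0.0181). The 10 astrocyte genes summed to 1257 to 3073 CPM in control and 1166 to 2822 in cKO, 12 of 13 listed neuron genes to 153 to 220 and 198 to 259, 4 of 12 microglial genes to 14.7 to 18.2 and 13.6 to 17.6, and 10 of 12 vascular and fibroblast genes to 3.36 to 11.8 and 4.0 to 9.63. The 14 mature oligodendrocyte markers summed to 640 to 5002 CPM in control and 714 to 6252 CPM in cKO, and were higher in cKO in 3 of 4 pairs. The neuron sum was higher in cKO in 4 of 4 pairs and the astrocyte sum in 0 of 4. Of tested markers, 7 of 12 mature oligodendrocyte, 5 of 10 neuron, 2 of 10 astrocyte, 1 of 2 microglial and 2 of 7 vascular and fibroblast genes rose, and 4 astrocyte genes fell, in a comparison with 10.0% of genes called higher and 10.4% lower. Among those that rose, Col1a2, Rgs5, Stmn2, Aspa, P2ry12, Ermn and Mog averaged only 0.127, 0.238, 0.146, 0.363, 0.448, 0.538 and 0.791 CPM in control. Mobp, which also rose, stood at 12.4 CPM in control library 1 but at 0.127, 0.0317 and 0.341 CPM in control libraries 3, 4 and 6. Low genes can pass the filter through the group where they are higher, so such rises cannot be weighed against these shares. No gene of these lists that is in the table was at 0 in every library. In bulk RNA, a change in the number of cells of a type and a change in RNA per cell cannot be told apart, and the part of these markers in the results was not tested.

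Of the 9 genes, Uhrf2 fell to 87.8% and Tet1 rose to 113% of the control level, and 7 did not pass. The test was edgeR's quasi-likelihood fit with batch number as a block, and "rose" and "fell" mean a Benjamini-Hochberg adjusted p under 0.05 over all 18102 genes. The 2 calls among 9 (22.2%) lay close to the background of the comparison, in which 20.5% of all genes tested were called (10.0% higher and 10.4% lower). The median log2 fold change of the 9 was -0.03, against -0.01 over all genes tested, and the median absolute change was 0.07 against 0.12. Without the block neither gene passed in edgeR (adjusted p of 0.945 for Uhrf2 and 1.0 for Tet1), and 3 of 18102 genes were called (0.0166%). DESeq2 without the block also called 0 of the 9, and in each of these fits 1 of the 9 lay under an unadjusted p of 0.05.

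**Figure D1:**
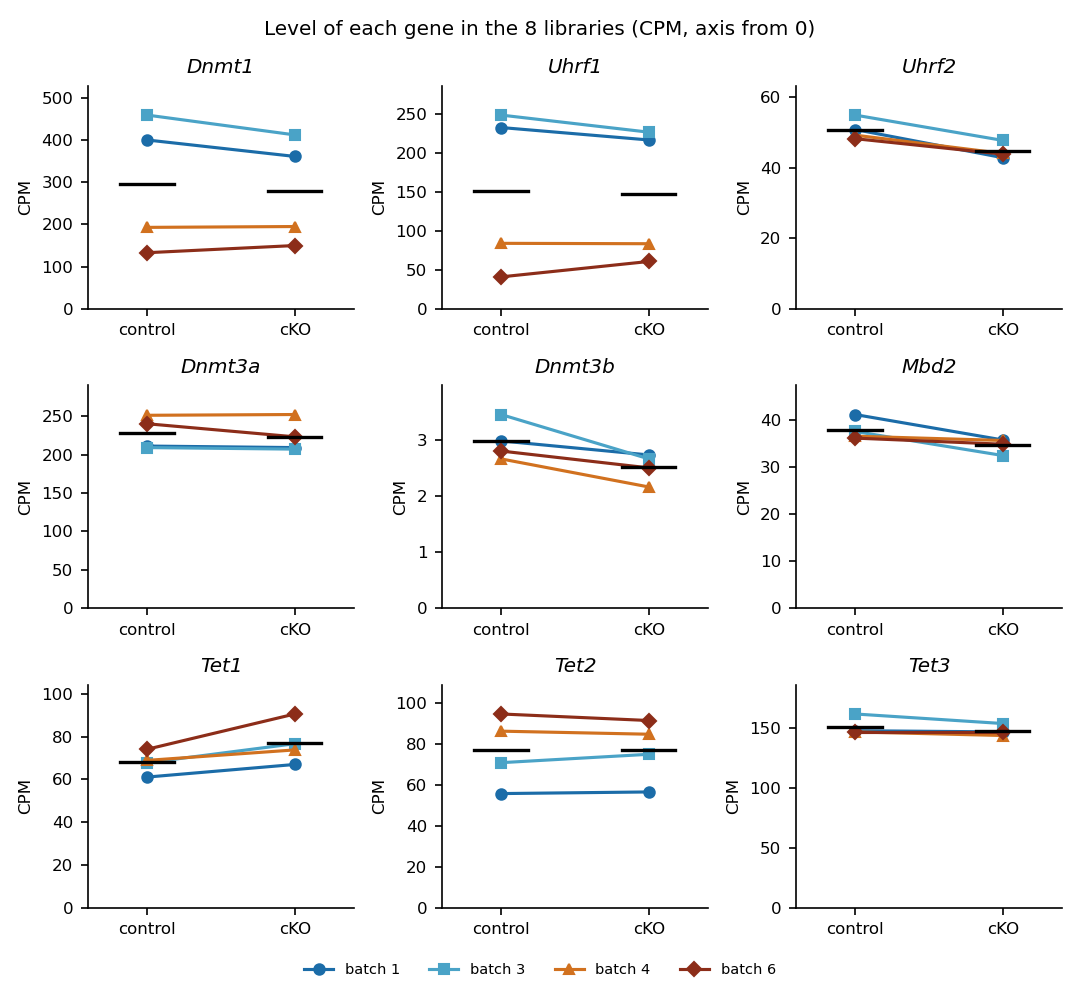
Level of each of the 9 genes in CPM (y axis, from 0) in control and cKO libraries (x axis). Each line joins the 2 libraries of 1 batch and black bars are group means; Dnmt1 and Uhrf1 separate by batch, while all 4 lines fall for Uhrf2 and rise for Tet1.

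Dnmt1 (chromosome 9, 20907209 to 20959888, mm10, minus strand), the maintenance methyltransferase gene, stood at 400, 459, 193 and 133 CPM in control libraries 1, 3, 4 and 6. In cKO libraries with the same numbers it stood at 361, 412, 195 and 150 CPM. Libraries of batches 1 and 3 were high and those of batches 4 and 6 low in either group, so the groups overlapped fully. The means were 296 ± 158 and 280 ± 127 CPM (SD, n = 4), and the fitted log2 fold change was -0.03 ± 0.05 (SE; edgeR adjusted p = 0.732). The 95% interval ran from 89.7% to 107% of control, with cKO lower in 2 pairs (-0.15 and -0.16 in batches 1 and 3) and higher in 2 (0.01 and 0.17 in batches 4 and 6).

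Uhrf1 (chromosome 17, 56303321 to 56323486, plus strand), whose product guides Dnmt1 to replicated DNA, followed the same order of batches with a wider range. It stood at 233, 249, 84.2 and 41.1 CPM in control libraries 1, 3, 4 and 6, and at 217, 227, 83.7 and 60.9 CPM in the cKO libraries. The highest library was 6.05 times the lowest, against 3.45 times for Dnmt1. The fitted change was 0.07 ± 0.13 (SE; edgeR adjusted p = 0.780), with a 95% interval from 82.0% to 134% of control. Pair differences on the log2 scale were -0.10, -0.13 and -0.01 in batches 1, 3 and 4 and 0.57 in batch 6. Without batch 6 the log2 fold change of Uhrf1 was -0.08 ± 0.03 (edgeR adjusted p = 0.129), so 1 pair set the sign of the estimate. That of Dnmt1 was -0.10 without batch 6 and 0.01 without batch 1 or 3, all short of the threshold.

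Cell cycle genes moved with these 2 genes from batch to batch. The 26 S phase genes summed to 2935, 2966, 1317 and 740 CPM in control libraries 1, 3, 4 and 6 and to 2833, 2891, 1323 and 962 CPM in cKO. The 20 G2/M genes summed to 5732, 5965, 2330 and 1481 CPM in control and 5293, 5657, 2231 and 1982 CPM in cKO. In batch 6, where Uhrf1 and Dnmt1 were higher in cKO, both sums were higher in cKO as well. Of the 26 S phase genes 4 rose (15.4%, against 10.0% of all genes tested) and 0 fell in edgeR. Those that rose included Tipin (0.16 ± 0.04), a replication fork protection gene, Rfc4 (0.21 ± 0.06), a clamp loader subunit, and Ccne2 (0.25 ± 0.07), cyclin E2. Of the G2/M genes 0 passed in edgeR or DESeq2 with the block and 1 lay under an unadjusted p of 0.05. Mki67, the proliferation marker gene, and Top2a, a DNA topoisomerase gene, did not pass (0.08 ± 0.15 and 0.03 ± 0.09). Without batch 6, 4 S phase genes were called higher and 4 lower, and 6 G2/M genes were called lower. That fit called 1702 of 18052 genes higher and 1730 lower. The number of S phase genes called higher was 3, 0 and 2 without batches 1, 3 and 4. Over all genes the number called higher was 1224, 1127 and 1208 in these fits, against 1817 with all batches. The part of cell division in the levels of Dnmt1 and Uhrf1 was not tested.

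**Figure D2:**
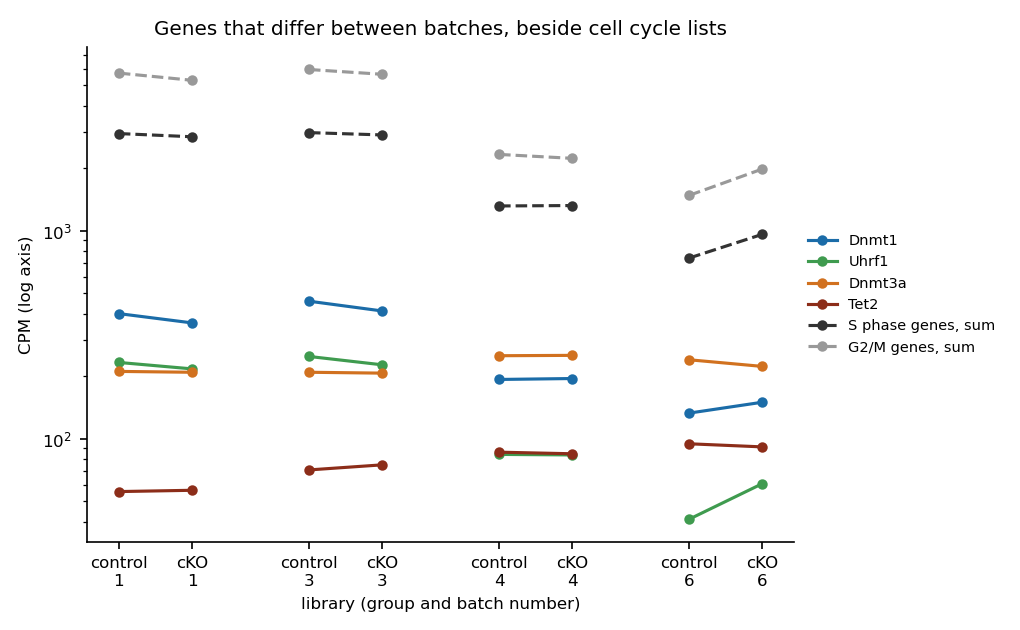
Levels in CPM (log y axis) of Dnmt1, Uhrf1, Dnmt3a and Tet2 and summed levels of 26 S phase and 20 G2/M genes in each library (x axis, group and batch number). Dnmt1, Uhrf1 and both sums are high in batches 1 and 3 and low in batches 4 and 6, and Uhrf1 and both sums are higher in cKO than control in batch 6.

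Uhrf2 (chromosome 19, 30030513 to 30093722, plus strand) encodes the paralogue of Uhrf1, which also binds modified CpGs but does not replace Uhrf1 in maintenance methylation. Its level was 50.9, 55.0, 49.3 and 48.3 CPM in control libraries 1, 3, 4 and 6, and 42.9, 47.8, 44.1 and 43.9 CPM in cKO. Each cKO library was below every control library. Uhrf2 fell by 0.19 ± 0.04 on the log2 scale (SE; edgeR adjusted p = 0.00575), to 87.8% of control (95% interval 83.0% to 92.9%), and was lower in 4 of 4 pairs. Leaving out any 1 pair kept it past the threshold (adjusted p of 0.00676 to 0.0331 in edgeR). The log2 ratio of Uhrf1 to Uhrf2 counts, which does not depend on library scaling, was 2.19, 2.18, 0.77 and -0.23 in control libraries 1, 3, 4 and 6. It was 2.34, 2.25, 0.93 and 0.47 in cKO, higher in 4 of 4 pairs by 0.27 on average (SD 0.29, n = 4) and by 0.12 without batch 6. An exact 2-sided permutation test within pairs gave p = 0.13, the smallest that 4 pairs allow (0.188 adjusted over the 6 ratios compared), so this design could not reach 0.05.

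Dnmt3a (chromosome 12, 3806007 to 3914443, plus strand) was the more abundant de novo methyltransferase transcript per kilobase of exon. It stood at 211, 209, 251 and 240 CPM in control libraries 1, 3, 4 and 6 and at 209, 207, 252 and 223 CPM in cKO. The groups overlapped, and libraries of batches 4 and 6, low for Dnmt1, were the higher ones. Its log2 fold change was -0.03 ± 0.03 (edgeR adjusted p = 0.506), with a 95% interval from 93.3% to 102% of control.

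Dnmt3b (chromosome 2, 153649450 to 153687730, plus strand), the other de novo enzyme gene, had the lowest level of the 9. Control libraries 1, 3, 4 and 6 gave 2.98, 3.45, 2.66 and 2.80 CPM, and cKO libraries 2.73, 2.66, 2.16 and 2.50 CPM. All 4 pairs were lower in cKO, but the groups overlapped and the change of -0.24 ± 0.11 did not pass (edgeR adjusted p = 0.160; 95% interval 71.1% to 101% of control). This was the largest fitted difference among the 9 genes, with the second widest interval after Uhrf1. The log2 ratio of Dnmt3a to Dnmt3b counts was 6.26 on average in control and 6.47 in cKO, higher in 4 of 4 pairs by 0.21 (SD 0.15, n = 4; exact permutation p = 0.13, 0.188 adjusted). For Dnmt1 over Dnmt3a the ratio differed by 0.0025 on average, with 2 pairs in each direction (SD 0.20, n = 4; exact permutation p = 1.0), while it stood at 0.92 and 1.14 in control libraries 1 and 3 and at -0.38 and -0.85 in control libraries 4 and 6. The cKO libraries followed the same batches, at 0.79, 0.995, -0.37 and -0.57 in numbers 1, 3, 4 and 6.

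Tet1 (chromosome 10, 62804570 to 62908996, minus strand) was the TET gene that rose. Control libraries 1, 3, 4 and 6 stood at 61.1, 67.8, 68.9 and 74.1 CPM, and cKO libraries at 67.0, 76.7, 73.8 and 90.6 CPM. Groups overlapped across batches, but each cKO library was above the control library of its batch. The log2 fold change was 0.17 ± 0.04 (SE; edgeR adjusted p = 0.00947), or 113% of control (95% interval 106% to 120%), with pair differences of 0.13, 0.18, 0.10 and 0.29 in batches 1, 3, 4 and 6. Leaving out any 1 pair kept the call, with adjusted p of 0.0177 to 0.048 in edgeR and the least change, 0.13, without batch 6.

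Tet2 (chromosome 3, 133463679 to 133545139, minus strand) stood at 55.8, 70.9, 86.3 and 94.7 CPM in control libraries 1, 3, 4 and 6 and at 56.6, 75.0, 84.8 and 91.5 CPM in cKO. Batches 4 and 6, low for Dnmt1 and Uhrf1, were high for Tet2, and its difference between groups did not pass (0.01 ± 0.03; edgeR adjusted p = 0.938; 95% interval 95.3% to 106% of control). Tet3 (chromosome 6, 83362373 to 83459084, minus strand) was the steadiest member, at 148, 162, 147 and 147 CPM in control and 147, 154, 144 and 147 CPM in cKO, with a highest library 1.12 times the lowest. Its log2 fold change was -0.03 ± 0.03 (edgeR adjusted p = 0.591; 95% interval 93.9% to 103% of control).

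Within the TET family the ratios with Tet1 were higher in cKO in every pair. Tet2 and Tet3 changed little (0.01 ± 0.03 and -0.03 ± 0.03), so these ratios largely restate the rise of Tet1 and are not a separate result. The log2 ratio of Tet1 to Tet3 counts was -1.15 in control and -0.95 in cKO on average (0.20 higher, SD 0.08, n = 4), and that of Tet1 to Tet2 was -0.15 and 0.02 (0.17 higher, SD 0.12, n = 4). Without batch 6 the second difference was 0.11. Each was higher in 4 of 4 pairs, with an exact permutation p of 0.13 (0.188 adjusted over 6 ratios), again the smallest possible. The Tet2 to Tet3 ratio was higher in 3 of 4 pairs by 0.03 (SD 0.09, n = 4; exact permutation p = 0.625).

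Mbd2 (chromosome 18, 70568189 to 70626131, plus strand), the NuRD-associated reader gene, stood at 41.1, 37.5, 36.5 and 36.1 CPM in control libraries 1, 3, 4 and 6. In cKO it stood at 35.7, 32.4, 35.6 and 34.8 CPM. Every cKO library was below every control library, as for Uhrf2, and cKO was lower in 4 of 4 pairs. The change of -0.12 ± 0.04 did not pass after adjustment (unadjusted p = 0.018, adjusted p = 0.0735 in edgeR; 95% interval 85.6% to 98.2% of control). It did not pass under any other setting run (adjusted p from 0.0599 to 0.264 with the block). Groups did not overlap for 2 of the 9 genes, against 666 of all 18102 genes tested (3.68%), in a comparison with 20.5% of genes called. All 4 pairs had the same sign for 4 of the 9 (Uhrf2, Tet1, Dnmt3b and Mbd2; 44.4%), against 7376 of all genes tested (40.7%).

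**Figure D3:**
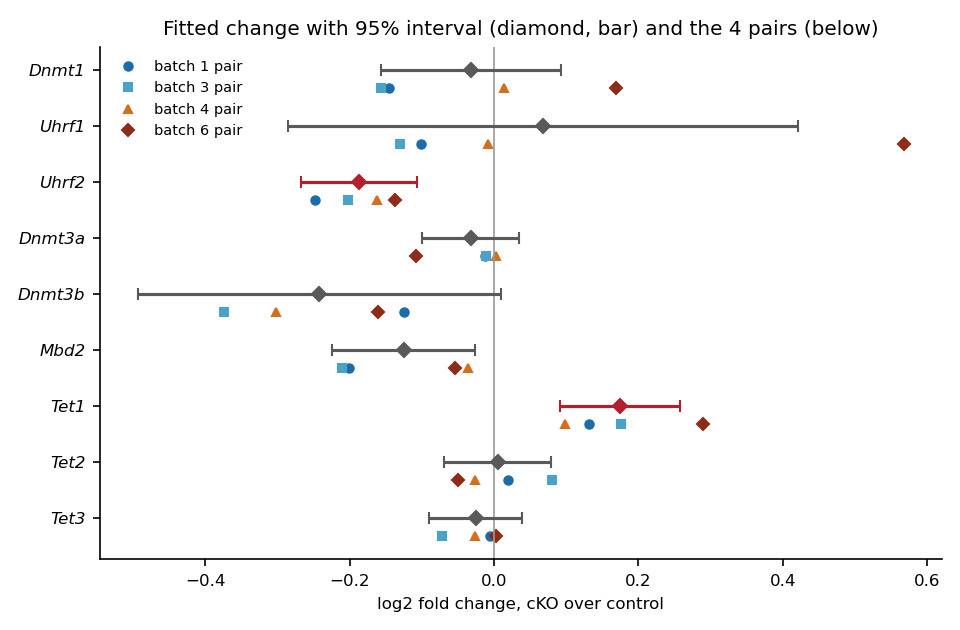
Fitted log2 fold change of cKO over control (x axis) for each gene, with its 95% interval (diamond and bar; red where the adjusted p was under 0.05), and below it the log2 difference of each of the 4 pairs. The intervals of Uhrf2, Tet1 and Mbd2 lie clear of 0, of which Mbd2 did not pass after adjustment, and the batch 6 pair of Uhrf1 lies at 0.57, apart from the other 3.

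Batches rather than genotype carried most of the spread of several members. Between-batch differences made up 99.0% of the sum of squares of log2 CPM for Dnmt1, 97.7% for Uhrf1, 99.2% for Tet2 and 94.4% for Dnmt3a, against a median of 81.1% over all genes tested. For Uhrf2 the share between batches was 29.7% and that between groups 66.9%. Mbd2 (32.1% and 48.0%), Dnmt3b (47.8% and 44.3%) and Tet1 (64.3% and 30.4%) lay between, and Tet3 had 84.6% between batches. Batches also differed in the summed mature oligodendrocyte markers, at 854, 640, 5002 and 2758 CPM in control libraries 1, 3, 4 and 6. In cKO the sums were 1116, 714, 6252 and 2667 CPM, so batches 4 and 6, low for Dnmt1 and Uhrf1, were higher. Not every marker followed this order, as Mbp was highest in batch 1 (217 CPM in control). The part of cell maturation was not tested, and what set the differences between batches cannot be told from the labels.

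**Figure D4:**
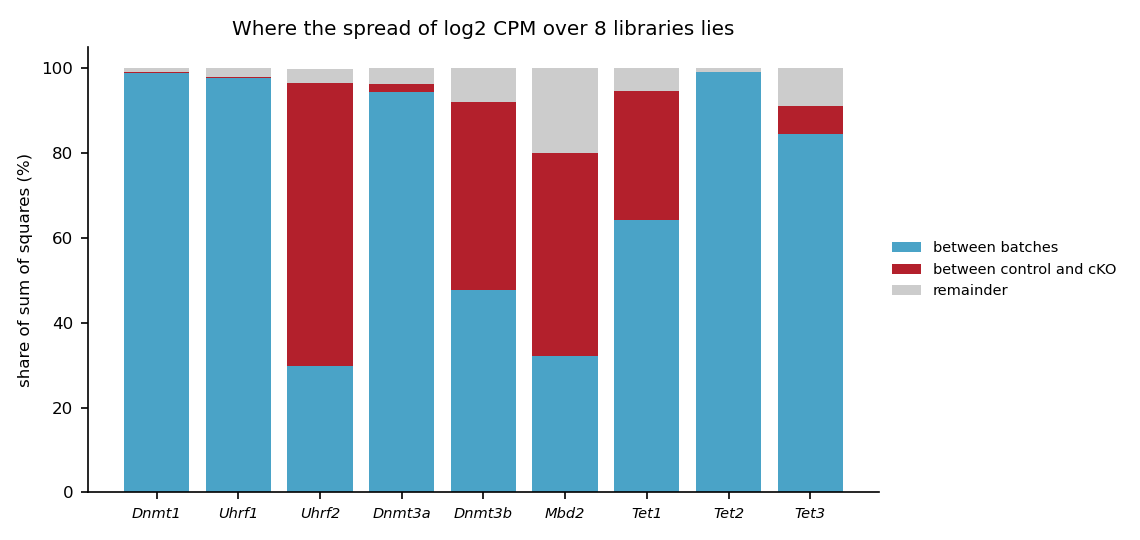
Share of the sum of squares of log2 CPM over the 8 libraries (y axis, percent) that lies between batches, between control and cKO, and in the remainder, for each gene (x axis). Dnmt1, Uhrf1, Dnmt3a and Tet2 are almost wholly between batches, and Uhrf2 is mostly between groups.

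Levels of different genes were compared as CPM per kilobase of exon union in GENCODE M21, whose gene coordinates match the deposited ones for all 9. In control libraries Dnmt1 was highest at 40.2 ± 21.4 CPM per kilobase (SD, n = 4), followed by Uhrf1 at 35.6 ± 24.5, with overlapping ranges (18 to 62.3 and 9.64 to 58.4). Dnmt3a (13.7 ± 1.27) and Mbd2 (11.8 ± 0.702) overlapped each other, and Tet3 (9.03 ± 0.432) lay below both. Uhrf2 (5.92 ± 0.345) came next, above Tet2 (4.56 ± 1.02) and Tet1 (4.40 ± 0.344), whose ranges overlapped. Dnmt3b was far the lowest at 0.583 ± 0.0675. In cKO libraries the level of Tet1 averaged 4.98 ± 0.643 and that of Tet2 4.56 ± 0.899. With the length of the longest coding transcript in place of the exon union, Tet3 (25.4) stood above Dnmt3a (23.5) and Mbd2 (19.4), while the other 6 places did not change. Since the annotation behind the counts is not stated, these levels are approximate. Annotated genes overlap Dnmt3a, Tet1 and Tet3, none above 0.579 CPM in any library.

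The genes whose log2 CPM over the 8 libraries was most like each member, among 10711 protein-coding genes of at least 5 CPM, are given as a description, since the libraries share 4 batches. Uhrf1 was nearest to Wdhd1 and Hrob (Pearson r = 0.999 for each, 8 libraries) and Dnmt1 to Espl1 and Stil (0.998 for each). Tet2 was nearest to Tspoap1 (0.996) and Zfp949 (0.995), and Dnmt3a to Kif1a (0.991) and Fnta (0.990). For Tet1 the nearest were Dpyd (0.987) and Chd6 (0.983), for Dnmt3b Bap1 (0.984) and Ninl (0.966), and for Uhrf2 Mrps2 (0.976) and Ercc2 (0.975). Tet3 was nearest to Map3k4 (0.978) and Rbm10 (0.972), and Mbd2 to Lzts2 (0.974) and Dnaja3 (0.938).

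Genes around this machinery were called in both directions. Over 7 lists of readers, cofactors, repair, metabolism, NuRD and germline genes, 83 of 111 genes were tested, of which 8 rose and 14 fell (26.5% called, against 20.5% of all genes), with a median log2 fold change of -0.05. Without batch 4 the count was 9 of these genes, and without batches 1 or 3 it was 14 and 12. Over all genes the count also fell, from 3706 to 2118, 2367 and 2102 without batches 4, 1 and 3, and to 3432 without batch 6. List counts with a batch left out, here and below, thus come from fits that called fewer genes in all. The 7 lists were chosen with earlier results of these data known, so their shares called are a description only. Among 9 other genes listed as methyl-CpG readers or as members of their families, 2 rose and 2 fell (44.4% called, against 20.5% of all genes tested). Zbtb38, a zinc finger protein that binds methylated CpGs, rose by 0.29 ± 0.04, from 21.2 ± 2.12 to 25.9 ± 2.82 CPM (SD, n = 4), and Zbtb33, encoding Kaiso, by 0.11. Mbd1 fell (-0.20 ± 0.04), from 48.2 ± 0.914 to 42.0 ± 2.31 CPM (SD, n = 4). Mbd3, a NuRD gene that is counted again below, also fell (-0.14 ± 0.03). With any 1 batch left out 1 of these genes was called higher, and without batch 3 or 4 only 1 was called lower.

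Of 14 NuRD genes 1 rose and 5 fell (42.9% called, against 20.5% of all genes tested). Chd5, a chromatin remodeller gene of neurons, rose by 0.45 ± 0.06 (13.7 ± 3.11 to 18.6 ± 3.16 CPM; SD, n = 4). Gatad2a (-0.15 ± 0.03), a scaffold subunit, fell together with Mbd3, Mta2 (-0.13), Chd3 (-0.36) and Mta1 (-0.10). Their number was 2 without batch 1 or 3, 0 without batch 4 and 3 without batch 6. Of 10 tested maintenance and targeting cofactors 0 rose and 2 fell (20.0% called, against 20.5% of all genes tested). Those that fell were Trim28 (-0.14 ± 0.03), the corepressor of KRAB zinc finger proteins, and Cxxc1 (-0.12 ± 0.03), which binds unmethylated CpGs. Hells, a remodeller needed for normal DNA methylation, did not pass (0.19 ± 0.15). The count of falls was 1 without batch 1 or 3, 0 without batch 4 and 3 without batch 6.

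Of 16 tested genes of demethylation and base excision repair 3 rose and 3 fell (37.5% called, against 20.5% of all genes tested). Apobec1, a cytidine deaminase gene, rose by 0.54 ± 0.07 (9.12 ± 4.30 to 13.5 ± 7.12 CPM; SD, n = 4), Apobec3 by 0.40 and Polb, the repair polymerase gene, by 0.24 ± 0.05. Parp1 fell (-0.22 ± 0.03), as did Gadd45b (-0.52) and Lig3 (-0.12). Tdg, the glycosylase that excises oxidised 5-methylcytosine, did not pass (-0.09 ± 0.03). The count of falls was 1 without batch 1, 3 or 4, and that of rises 2 without batch 3 or 4. Of 14 genes of TET cofactors and partners 1 was called (7.14%, against 20.5% of all genes tested). It was the corepressor gene Bcor, which fell (-0.15 ± 0.04), a call lost without batch 4 or batch 6 (edgeR adjusted p of 0.14 and 0.0701). Among those that did not pass were Ogt, the O-GlcNAc transferase gene that partners TET proteins (-0.02 ± 0.03), and Idh1, which produces the TET cosubstrate 2-oxoglutarate (0.01 ± 0.04).

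Of 17 tested genes listed for the methyl donor and folate cycles 2 rose and 2 fell (23.5% called, against 20.5% of all genes tested). Adk, adenosine kinase (0.16 ± 0.04), and Ahcyl2 (0.12) rose, and Ahcyl1 (-0.15 ± 0.03) and Shmt2, mitochondrial serine hydroxymethyltransferase (-0.20 ± 0.04), fell. Ahcy, the gene that Ahcyl1 and Ahcyl2 resemble, did not pass (0.01 ± 0.05), nor did Mat2a, which makes S-adenosylmethionine (-0.07 ± 0.03). The rises were 1 without batch 1 or 4 and 0 without batch 3, and the falls were 5 without batch 6. Genes listed as germline genes with promoters methylated in somatic cells were mostly not measurable. Of 26 listed, 12 were in the table and 5 passed the filter, which low genes pass through the group where they are higher. None of those 5 was called in edgeR or DESeq2 with the block, and 1 lay under an unadjusted p of 0.05. Dmrtb1 (60.2 ± 5.49 and 56.3 ± 5.21 CPM in control and cKO; SD, n = 4) and Tex15 (6.30 ± 5.13 and 6.42 ± 4.23 CPM) were the highest of them. Both were thus expressed in these cultures whatever the name of the list, and promoter methylation was not measured.

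**Figure D5:**
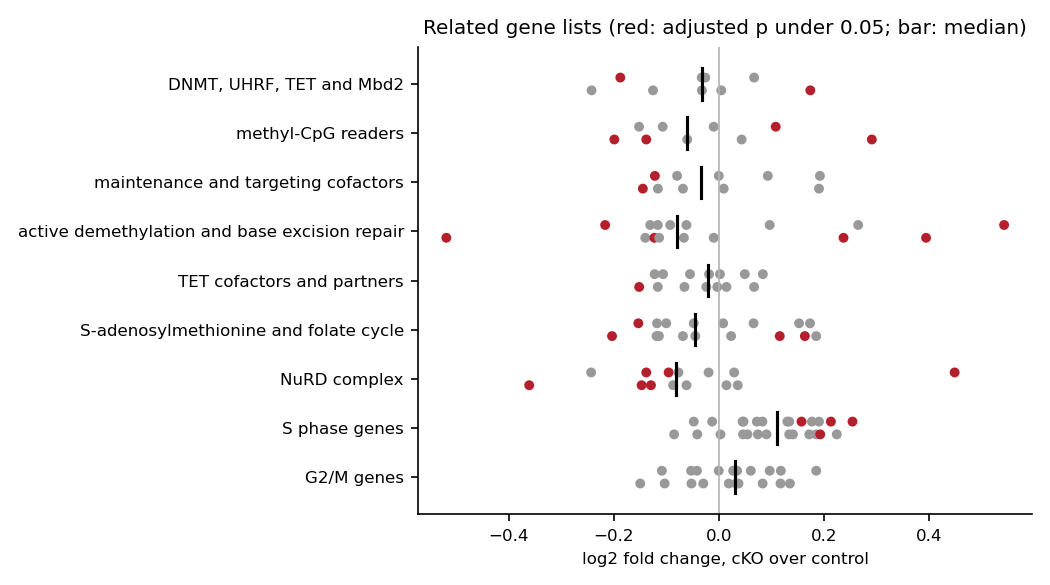
Log2 fold change of cKO over control (x axis) for every tested gene of the 9 members and 8 related lists (y axis). Red points passed an adjusted p of 0.05 and black bars are medians; in each of the lists plotted, which leave out the 5 tested germline genes, values lie on either side of 0.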

How the data were processed

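RNA-seq libraries of 4 control and 4 cKO cultures were analysed, made with a KAPA mRNA kit per the labels' protocols. The submitters' processing notes name Partek, STAR, cutadapt, DESeq2 and mm10, while versions, counting annotation and strand use are not stated there. The authors deposited estimated counts per gene, not normalized, of which 52% are not whole, so reads were divided among features and genes sharing sequence can exchange counts.

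Counts were rounded. Genes were filtered with filterByExpr (minimum count 10), scaled by TMM, and tested 2-sided with edgeR 4.0.16 (glmQLFit robust, glmQLFTest; R 4.3.3) with batch number as a block, Benjamini-Hochberg adjusted over 18102 genes at a threshold of 0.05. Log2 CPM used a prior count of 2. Alternatives used DESeq2 1.42.0, limma 3.58.1, other scaling and filters, no block, and each pair left out. The block rests on the labels, which give each batch number to 1 library per group; libraries' deviations from their group mean had correlations of 0.787, 0.791, 0.761 and 0.75 within numbers 1, 3, 4 and 6 and at most 0.394 between different numbers. No libraries of a group were duplicates (chi-square per degree of freedom of 54.2 or more). The fit was tested on simulated data, and the result is not reported here. Paralogue ratios used exact permutation within pairs. They are built from the same counts as the tests of single genes and are not separate support for them.

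The members and lists were chosen with earlier results of these data known, and the motif search after member values were seen. Genes named are the 9 members, the targeted genes, per list up to 3 called genes with the smallest p (if none, the 2 highest), and the 2 genes most like each member; other list genes were named after their values were seen.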

Additional observations from a re-analysis of the deposited data

Results flagged for a closer look

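One member value stood apart within its group: Tet3 in control library 3, at 162 CPM, against 147 to 148 CPM in the other 3 control libraries. Its gap to the nearest library was 0.935 of the group's range, above Dixon's 95% critical value for 4 libraries. Of 18 sets of 4 libraries checked this was the only one, and chance marks about 1 in 20.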

How the results depend on the processing

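The calls of Uhrf2 and Tet1 held under each of the 10 alternative settings that kept the replicate block (RLE or upper-quartile scaling, no filter or a filter of 1 CPM in 4 libraries, DESeq2, limma-voom and each of 4 pairs left out), with adjusted p of 0.00284 to 0.0331 and 0.00499 to 0.048, so 2 members were called with each pair left out. With no replicate block, edgeR and DESeq2 called 0 members and 0 genes of the related lists, and 3 and 191 genes in all. With each pair left out, genes called in all ranged from 2102 to 3432 against 3706, and those of the related lists from 9 to 26 against 22. Estimates near 0 changed sign. Without the block, edgeR and DESeq2 gave -0.043 and -0.047 for Uhrf1, -0.042 and -0.046 for Mki67 and -0.021 and -0.025 for Top2a, and DESeq2 gave -0.0028 for Tet2. With each pair left out, estimates ranged from -0.0973 to 0.0141 for Dnmt1, -0.0818 to 0.142 for Uhrf1, -0.0162 to 0.0269 for Tet2, -0.0852 to 0.167 for Mki67 and -0.0803 to 0.0869 for Top2a. The ratio difference ranged from -0.0891 to 0.0516 for Dnmt1 over Dnmt3a and from -0.009 to 0.0594 for Tet2 over Tet3, and the other 4 ratios kept their sign, though Uhrf1 over Uhrf2 dropped to 0.1245 and Tet1 over Tet2 to 0.1108 without replicate 6. Between-batch shares were the same with a prior count of 0.5. The causes were not tested. Counts were low, and precision from counting small, for Dnmt3b among the members and for most germline genes in the table.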
